A study of Mus musculus with 2 samples.

Results

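Amacrine cluster 12 was the set of nuclei that carried the authors' cell type name Amacrine and the cluster number 12 in single-nucleus RNA-seq of mouse retina. It held 371 of 14123 nuclei, of which 357 came from the Tet tcKO library and 14 from the Cre- library. All nuclei numbered 12 carried the name Amacrine. The retinas were whole retinas of C57 BL/6J mice at postnatal day 21 (P21). Tet tcKO animals had floxed alleles of Tet1, Tet2 and Tet3, the genes of the enzymes that oxidise 5-methylcytosine, recombined by the Chx10-Cre-GFP transgene in retinal progenitors, and the control animals carried no Cre. Nuclei of 2 dissociation pools entered the PIPseq (particle-templated partition) reaction of each genotype, the pool of a nucleus is not recorded in the tables used here, and so each genotype was 1 library with no replicate. A cluster set against the rest of the nuclei it was cut from is no test, so ratios below are descriptions with 95% intervals that cover counting error only.

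Amacrine cells are inhibitory interneurons of the inner retina. They receive glutamate from bipolar cells and pass signals sideways and back to bipolar terminals, to other amacrine cells and to ganglion cells. Most release either GABA, made by the enzymes Gad1 and Gad2, or glycine, which they take up with the transporter Slc6a9, and many types add a peptide, a monoamine or another transmitter. Starburst amacrine cells, which also release acetylcholine, are the best known GABA type.

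Cluster 12 made up 34.2% of the 1043 amacrine nuclei of the Tet tcKO library (95% Clopper-Pearson interval 31.3 to 37.2) and 3.47% of the 403 amacrine nuclei of the Cre- library (1.91 to 5.76), or 6.22% of those with 1000 UMIs or more. As a share of all nuclei these were 5.28% (4.76 to 5.84) of 6766 and 0.19% (0.104 to 0.319) of 7357, the latter 0.32% at 1000 UMIs or more. The other amacrine clusters of the Tet tcKO library were clusters 13, 23, 24 and 27, with 122, 222, 321 and 21 nuclei. In the Cre- library the counts were 72, 26, 35 and 256, so that cluster 27 held 63.5% of its amacrine nuclei. Whether the different cluster numbers reflect genotype or library cannot be told apart with 1 library each. The nuclei of cluster 12 were the deepest amacrine nuclei, with a median of 2651 UMIs (unique molecular identifiers, 1 for each captured transcript) and 1589 genes, against 1469 UMIs and 1084 genes in the other 686 Tet tcKO amacrine nuclei. The 14 Cre- nuclei had a median of 3151 UMIs against 1051 in the other Cre- amacrine nuclei. One barcode was shared between the libraries among all nuclei, and it belonged to a nucleus of cluster 12 in 1 of them.

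Of 12 amacrine markers, 8 were higher in cluster 12 than in the non-amacrine nuclei of the same library and 4 were lower. The summed level of 12 amacrine markers was 3464 counts per 1000000 (CPM) in cluster 12, against 1801 CPM in nuclei named Horizontal, 1527 CPM in Bipolar, 1523 CPM in Cones and less in the other classes. Over all non-amacrine nuclei the log2 ratio was 2.21 for Tfap2a, a transcription factor of amacrine cells, 2.13 for Gad2, 1.81 for Lhx9, 1.80 for Meis2 and 1.40 for Gad1. The same ratio was -0.98 for Slc6a9 and -0.45 for Slc32a1, the transporter that loads GABA and glycine into vesicles, and it was -0.39 for Tfap2c and -0.07 for Bhlhe22. The 10 genes with the largest ratio over non-amacrine nuclei held none of the 12 amacrine markers, and 3 of them, Stxbp6, Htr2c and Tacr1, were among the 5 markers given for the cluster.

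The 5 given markers were each higher in cluster 12 than in the other Tet tcKO amacrine nuclei, and Stxbp6, Htr2c and Erbb4 by at least 2-fold. Among 10709 genes at 10 CPM or more in either population, 253 (2.36%) were at least 2-fold higher in cluster 12 and 551 (5.15%) at least 2-fold lower, the median log2 ratio was -0.10, and 40.5% of the genes had a positive ratio. This balance depended on the scale, since counting each gene once per nucleus gave 615 higher and 420 lower with a median of 0.036. Genes under 10 CPM in the other nuclei were counted only through cluster 12, which leans them to the higher side. Among those named below are Npy, Tac1, Htr2a, Eomes, Lrrtm2, Sema3c, Slc18a2 and Vim. The reverse holds for genes under 10 CPM in cluster 12, such as Chrnb4, Gabrd, Grin2c, Tfap2c, Neurod2 and Pax2. The counting intervals of Sema3c, Slc18a2, Vim, Gabrd, Grin2c, Tfap2c, Neurod2 and Pax2 included 0. Because the nuclei were clustered on these transcripts and the markers were chosen to mark the cluster, none of these counts is evidence for it.

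Erbb4, the neuregulin receptor tyrosine kinase, lies on chromosome 1 from 68071345 to 69147619 (GRCm39, minus strand). Its level was 822 CPM (95% Poisson interval 769 to 879) in cluster 12, 128 CPM in cluster 13, 307 CPM in cluster 23, 428 CPM in cluster 24 and 253 CPM (102 to 522, 7 UMIs) in cluster 27. The interval of cluster 12 lay above those of the other 4 clusters, and the log2 ratio over their sum was 1.39 (1.22 to 1.56).

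Htr2c, the serotonin 2C receptor, lies on chromosome X from 145745509 to 145980286 on the plus strand. It was measured at 199.7 CPM in cluster 12 and at 42.6, 90.3, 119 and 109 CPM in clusters 13, 23, 24 and 27, where the last value was 3 UMIs. Its log2 ratio was 1.12 (0.79 to 1.46), and 0.94 without cluster 13.

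Stxbp6 codes for a syntaxin-binding protein (amisyn) and lies on chromosome 12 from 44899267 to 45146587 on the minus strand. Its levels were 277 CPM in cluster 12 and 105, 121 and 153 CPM in clusters 13, 23 and 24, with 1 UMI in cluster 27, and its log2 ratio was 1.11 (0.83 to 1.40), and 0.93 at 1500 to 3500 UMIs.

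Tacr1, the substance P receptor (chromosome 6, 82379278 to 82537085, plus strand), stood at 84.4 CPM in cluster 12 against 15.5, 50.0 and 55.4 CPM in clusters 13, 23 and 24, a log2 ratio of 0.94 (0.45 to 1.45), with no UMI in cluster 27. Gad2 (chromosome 2, 22511862 to 22583886, plus strand) stood at 152 CPM against 27.1, 106 and 130 CPM, with 1 UMI in cluster 27, a log2 ratio of 0.64 (0.30 to 0.99). The Gad2 intervals of cluster 12 (129 to 177) and cluster 24 (99.3 to 167) overlapped, as did the Tacr1 intervals of cluster 12 (67.9 to 104) and clusters 23 (32.6 to 73.2) and 24 (36.2 to 81.1). Cluster 24 was the nearest of clusters 13, 23 and 24 for all 5 markers.

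**Figure D1:**
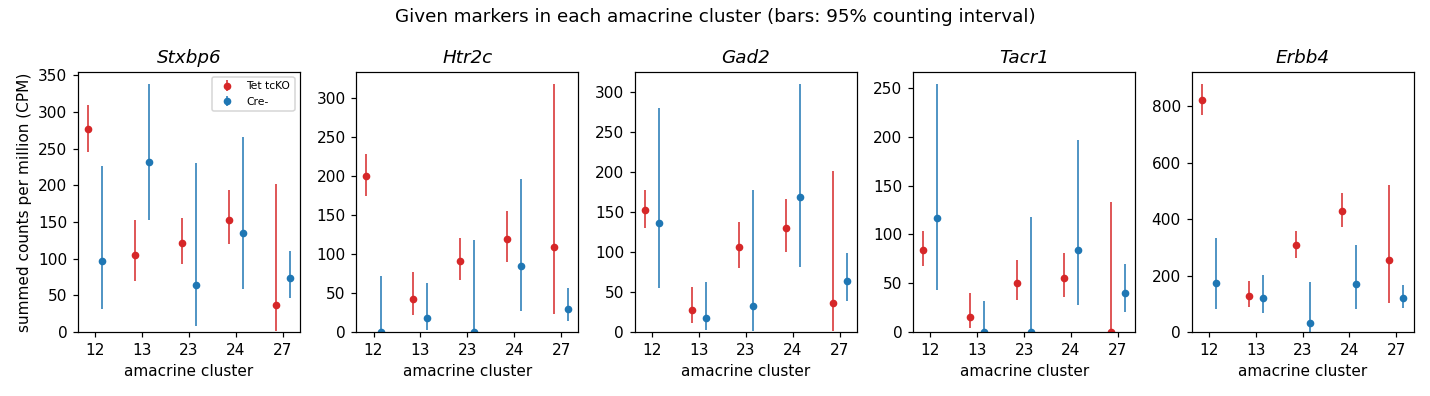
Summed level in CPM of the 5 given markers in each amacrine cluster of the Tet tcKO library (red) and the Cre- library (blue), with bars for the 95% Poisson interval and 1 library per genotype. The Tet tcKO value of cluster 12 is the highest red point in each panel, and the 14 Cre- nuclei of cluster 12 have wide intervals.

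Deeper nuclei show a UMI of any gene more often, so each nucleus was also thinned to 500 UMIs. Erbb4 then had a UMI in 22.97% of cluster 12 nuclei (unthinned 49.3%), in 11.8% of other Tet tcKO amacrine nuclei (29.4%) and in 8.65% of Tet tcKO cone nuclei (31.6%), a class not marked by it. Stxbp6 had a UMI in 11.2%, 4.66% and 1.83% of the same thinned nuclei (40.9%, 18.9% and 9.40% unthinned). Gad2 had one in 6.72% of cluster 12 (4.35 to 9.84), 5.10% of other amacrine (3.58 to 7.02) and 1.71% of cone nuclei, so its shares in the amacrine populations overlapped at this depth. Slc6a9 had one in 2.52%, 4.23% and 5.12%, so neither amacrine share was above that of cones. Its level was 40.3 CPM in cluster 12, 123 CPM (94.7 to 157) in cluster 23 and 98.5 CPM in cones. How much of it is background was not tested.

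The genes of highest ratio at 50 CPM or more fell into 2 kinds. For Gm37202, Rag1, Spsb1, Gm33125 and Gm45459, almost all UMIs came from 1 nucleus each (102 of 104, 55 of 55, 50 of 54, 55 of 56 and 99 of 106), and these describe those nuclei and not the cluster. The other 10 of the 15 highest were spread over 35 to 284 nuclei, though 93 of the 135 UMIs of Gm26871 came from 13 nuclei of 1 sub-cluster described below.

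Elavl2, which codes for a neuronal RNA-binding protein, led these, at 137 CPM in cluster 12 and 3.87, 26.9 and 53.2 CPM in clusters 13, 23 and 24, with 109 CPM from 3 UMIs in the 21 nuclei of cluster 27, a log2 ratio of 2.02 (1.52 to 2.55). Arpp21, a regulated phosphoprotein of neurons, followed with 1.53 (0.97 to 2.11), but its UMIs came from 35 nuclei. Brinp1 had a log2 ratio of 1.38 (1.08 to 1.70), with a UMI in 145 of 357 nuclei, and Cobl, an actin nucleator, had 1.35 (0.96 to 1.76). Lrrtm4, a leucine-rich repeat protein that organises synapses, was at 2765 CPM against 291, 1015 and 1684 CPM in clusters 13, 23 and 24, a log2 ratio of 1.33 (1.24 to 1.42), with UMIs in 284 nuclei. When each gene was counted once per nucleus, Lrrtm4 came to -0.07. Fat4, a large protocadherin, Gm26871, Gm10530 and Igf1, the insulin-like growth factor, had ratios of 1.34, 1.34, 1.31 and 1.26. At 1500 to 3500 UMIs per nucleus in both populations (199 and 268 nuclei, medians 2323 and 1909.5), the ratios of Elavl2, Erbb4, Brinp1 and Lrrtm4 were 1.56, 1.39, 1.35 and 1.07, while those of Arpp21 and Gm26871 were 0.87 and 0.46.

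Of the 253 genes at least 2-fold higher, 244 were above each of clusters 13, 23 and 24, 225 stayed at least 2-fold higher without the highest nucleus of each population, 185 stayed so without cluster 13 in the reference, and 153 stayed so at 1500 to 3500 UMIs. The counting interval lay above 0 for 179 of the 253, and below 0 for 371 of the 551 genes at least 2-fold lower. The genes at least 2-fold higher had a median length of 49.2 kb, against 37.0 kb for all genes counted and 20.4 kb for the genes at least 2-fold lower (gene start to gene end in GENCODE). Depth per nucleus also differed between the populations, and its part in the length difference was not tested.

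The 15 lowest genes at 50 CPM or more were mostly genes of cluster 13, which carried the starburst markers. Chat, the acetylcholine-making enzyme, was at 6.56 CPM in cluster 12 and 395 CPM in cluster 13, with 0 UMIs in clusters 23, 24 and 27. Its log2 ratio was -3.61 (-4.96 to -2.51). Without cluster 13 the reference held no Chat UMI, and the ratio against the floor of 3 counts was a bound of at least 1.15, from 7 UMIs. Slc5a7, the choline transporter, went from -2.87 to 1.31 and Etl4 from -1.61 to 0.52, while Sox2ot (-3.51), Megf11 (-3.42) and Isl1 (-2.67) came to -0.36, -0.50 and -0.42. The low values of these genes therefore describe what cluster 13 has. Glra1, a glycine receptor subunit, and Tspan17 did not depend on cluster 13, with -1.70 and -1.54 in full and -1.96 and -1.40 without it. Of the 551 genes at least 2-fold lower, 205 had their highest level in cluster 13, and 441 stayed at least 2-fold lower without it.

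**Figure D2:**
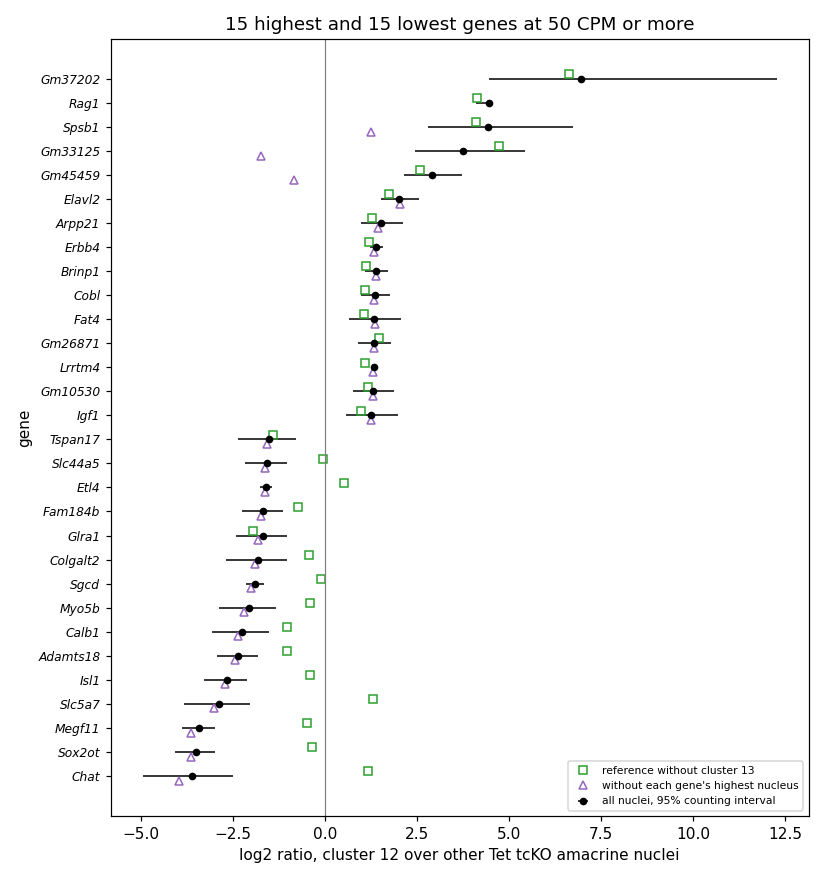
Log2 ratio of cluster 12 over the other Tet tcKO amacrine nuclei for the 15 highest and 15 lowest genes at 50 CPM or more, with 95% counting intervals (black, no upper bar where the reference count was 0), without cluster 13 in the reference (green) and without each gene's highest nucleus (purple). Gm33125 and Gm45459 drop below 0 without 1 nucleus, and Chat (a bound against 3 counts), Slc5a7 and Etl4 rise above 0 without cluster 13.

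Of 8 listed transmitter genes of the GABA pathway 7 were counted, with a median log2 ratio of 0.13 beside -0.10 for all genes. Of these 7, 0 were at least 2-fold different in either direction. Over all genes 2.36% were higher and 5.15% lower, shares to set beside each count in this paragraph, and 0 of 7 is near them. Gad2 was highest at 0.64 and Slc32a1 was at -0.43. In the glycine list, 1 of 7 counted genes was higher, the receptor subunit Glra2 (96.6 against 45.5 CPM, log2 ratio 1.09), and 1 lower, Glra1 (22.5 against 72.9 CPM). Slc17a8, the vesicular glutamate transporter VGLUT3, had a log2 ratio of 1.37, with 41 UMIs in 14 nuclei, of which 1 nucleus held 14. Slc18a2, the vesicular monoamine transporter, had 1.12 from 20 UMIs. The list of non-GABA non-glycine amacrine genes had 2 of 3 counted genes lower, Ebf3 (-1.14) and Neurod2 (-1.06). Neurod2 was counted only through the other nuclei (5.63 against 11.8 CPM), and its interval (-2.72 to 0.38) included 0.

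Among 20 neuropeptide genes only 5 were counted, and 3 of them were at least 2-fold higher, beside 2.36% of all genes. Of these 3, Npy and Tac1 were counted only through cluster 12, at 7.84 and 8.62 CPM in the other nuclei. Cck was not counted, at 0.94 against 7.84 CPM, so the 3 of 5 is partly set by the minimum. Cartpt, the precursor of the CART peptides, was at 42.2 against 12.5 CPM (log2 ratio 1.75), with 16 of its 45 UMIs in 1 nucleus. Npy had 1.46 and Tac1, the precursor of substance P, had 1.26, each from fewer than 25 UMIs, and Npy came to 0.995 without its highest nucleus and 0.63 at 1500 to 3500 UMIs. Tac2 was at 0.72. Of the listed peptides, 8 had no UMI in cluster 12.

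Receptor lists were small, and their counts past 2-fold stand beside 2.36% of all genes higher and 5.15% lower. Htr2a joined Htr2c among 9 counted monoamine receptors (20.6 against 7.84 CPM, log2 ratio 1.40, 22 UMIs). Chrna7, a nicotinic receptor subunit, was higher among 8 counted acetylcholine receptors (81.6 against 38.4 CPM, 1.09) and Chrnb4 lower (-1.69). Of 15 GABA receptor genes, Gabrg1 was higher (1.02) and Gabra4 (-1.004) and Gabrd (-1.02) were lower. Without cluster 13, where Gabra4 was at 112 CPM, Gabra4 came to 1.03, and Gabrg1 and Gabrd to 0.83 and -0.58. Of 17 ionotropic glutamate receptor genes 14 had a positive ratio, beside 40.5% of all genes, with Gria1 at 0.66, and only Grin2c passed 2-fold, downwards (-1.24, 5.63 against 13.3 CPM). No metabotropic glutamate receptor passed 2-fold, with Grm5 at 0.75. Of 6 counted peptide receptors, Crhr1, a receptor of corticotropin-releasing hormone, was lower (-1.08). In the ErbB list of 7 counted genes, Erbb4 was the only one at least 2-fold different, and its ligand Nrg1 stood at 3466 against 1884 CPM (0.88).

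Of 38 counted genes for laminar adhesion and guidance, 2 were higher and 3 lower, beside 2.36% and 5.15% over all genes. Robo1, a receptor of the Slit proteins, was at 1882 CPM in cluster 12 and at 124, 997 and 1162 CPM in clusters 13, 23 and 24, with 1195 CPM in the 21 nuclei of cluster 27, a log2 ratio of 1.09 (0.98 to 1.19) that came to 0.80 without cluster 13 and 0.98 at 1500 to 3500 UMIs. Sema3c, a secreted semaphorin, had 1.26 at 13.1 CPM, and 0.93 without cluster 13. The lower genes were Epha8 (-1.19), Robo3 (-1.15) and Slit3 (-1.06). Among 32 synaptic organisers, Lrrtm2 (2.26, 12 UMIs), Lrrtm4 (1.33) and Flrt3 (1.12) were higher, and Slitrk6 (-3.55, 1 UMI) and Slitrk2 (-1.88) were lower. In the list for vesicle fusion and release, Stxbp6 was the 1 gene of 34 at least 2-fold higher, and Cplx4, a complexin of ribbon synapses (-1.37), and Sv2c, a synaptic vesicle protein (-1.43), were lower. Of 13 contactins and partners 0 passed 2-fold, with Cntnap5c at 0.84 and Cntn3 at 0.83. Cdh20 was the 1 cadherin of 14 past 2-fold (462 against 227 CPM, 1.03), and Kcnh8 the 1 potassium channel gene of 29 (60.0 against 29.8 CPM, 1.01). Of the 64 UMIs of Kcnh8, 42 came from 16 nuclei of 1 sub-cluster described below. Of 26 calcium and sodium channel genes, Cacna2d4 was lower (-1.08).

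Of 45 counted transcription factor genes, 1 was at least 2-fold higher and 8 were lower, beside 2.36% and 5.15% over all genes, with a median log2 ratio of -0.30. Eomes, a T-box factor, was the higher one, with 16 UMIs in 9 nuclei against 3 UMIs elsewhere (15.0 against 2.35 CPM, 2.67). Meis2 stood at 1155 against 595 CPM (0.96). The lower ones included Neurod1 (60.0 against 158 CPM, -1.40), Neurod4 (-1.67), Prox1 (45.9 against 103 CPM, -1.16), Ebf3 and Tfap2c (-1.44, 3.75 against 10.2 CPM), besides Isl1 and Sox2, starburst markers that came to -0.42 and -0.068 without cluster 13.

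Counts for markers of other cell types stand beside 2.36% of all genes at least 2-fold higher and 5.15% lower. Of 9 rod markers 2 were at least 2-fold lower, Pde6b (-1.07) and Cnga1 (-1.06), and of 10 counted cone markers 2, Rxrg (-1.74) and Gnat2 (-1.04). The medians were -0.61 and -0.62, and 0 of the 9 and 0 of the 10 had a positive ratio, beside 40.5% of all genes. Rod and cone markers took 0.25% of the UMIs of cluster 12 and 0.362% of those of the other Tet tcKO amacrine nuclei, with 0.268% in cluster 13, 0.468% in cluster 23 and 0.3% in cluster 24. Of 10 counted bipolar markers 3 were at least 2-fold lower, Gng13 (-1.27), Pcp2 (-1.16) and Trpm1 (-1.004), and Neto1 was at 0.73. None of 6 microglia markers reached 10 CPM, their sum was 12.2 CPM, and of 10 ganglion cell markers 1 had no UMI and the counted 6 had a median of -0.38. Of 3 counted horizontal cell markers 2 were lower, Calb1 (-2.26) and Prox1 (-1.16), and Prox1 was also the 1 lower of 5 markers of AII cells, a glycine type. Of 6 counted Müller glia markers Vim was higher (10.3 against 4.70 CPM, 1.13) and 0 were lower. Pax2 was the 1 astrocyte marker counted (-1.12), only through the other nuclei (4.69 against 10.2 CPM), and its interval (-2.96 to 0.46) included 0. Of the astrocyte markers not counted, S100b was higher (8.44 against 3.92 CPM), and Gfap and Pdgfra were lower. Of 3 counted vascular markers 0 passed 2-fold. These lists moved with depth and with cluster, and their part in the other lower genes was not tested.

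Transcripts of the deleted genes were counted in cluster 12, at 66.6 CPM for Tet1, 94.7 CPM for Tet2 and 143 CPM for Tet3, with log2 ratios of -0.29, -0.53 and -0.11 over the other Tet tcKO amacrine nuclei. In Cre- cluster 27 the levels were 76.6, 86.6 and 140 CPM, and the 3 intervals overlapped those of cluster 12. A 3′ count does not separate recombined from intact transcripts, so these levels are no check of the deletion.

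**Figure D3:**
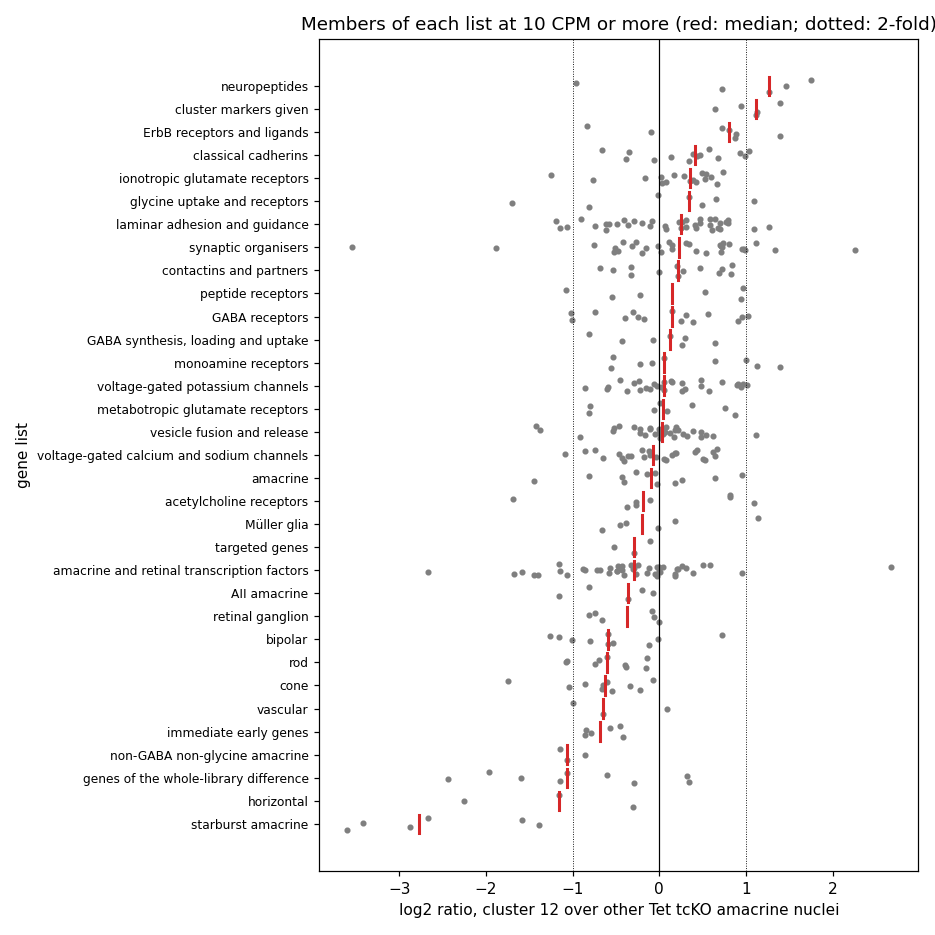
Log2 ratio of cluster 12 over the other Tet tcKO amacrine nuclei for each list member at 10 CPM or more (grey) with the list's median (red) and dotted lines at 2-fold. Starburst genes sit lowest, with a median of -2.77 that came to -0.24 without cluster 13.

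Clustering the 357 Tet tcKO nuclei of cluster 12 alone (Leiden, resolution 0.6) gave 7 sub-clusters of 90, 80, 52, 40, 36, 31 and 28 nuclei, and resolutions of 0.3 and 1 gave 4 and 8. The sub-clusters are described by their leading genes and were given no cell type name. They were cut from the same transcripts that give their leading genes. Differences between them are therefore partly built in and are no evidence for the split.

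The smallest, of 28 nuclei, was the most stable, with 96.4% and 100% overlap with its best match at the other resolutions. It was led by Kcnh8, a potassium channel (471 CPM against 22.5 CPM in the rest of cluster 12), and Tafa1, a secreted peptide (1739 against 121 CPM). In the other Tet tcKO amacrine nuclei Kcnh8 was at 29.8 CPM, above the rest of cluster 12. Htr2c was also highest there, at 808 CPM (632 to 1017) against 54.2 to 242 CPM in the other 6. Gad1 had 3 UMIs in it and Gad2 11.

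The sub-cluster of 40 nuclei was led by Clmn, Arap2 and the transcription factor Maf (268 against 31.3 CPM), and Adarb2 was at 4271 against 643 CPM. Elavl2 had 1 UMI there. The sub-cluster of 80 nuclei held most of the Erbb4 signal, at 2023 CPM (1843 to 2216) against 495 CPM in the rest, with Igf1 at 136 against 27.4 CPM and Chrm2, a muscarinic receptor, at 447 against 84.7 CPM. Erbb4 was at 124 CPM in the sub-cluster of 90 nuclei, where Robo1 was highest, at 4120 CPM against 270 to 2625 CPM in the others. That sub-cluster was led by Svep1, Col11a1 (1804 against 314 CPM) and Olfm3.

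The sub-clusters of 52, 36 and 31 nuclei overlapped their best match by 34.7% or less at resolution 0.3, where larger sets took them in, and by 80.0%, 92.3% and 83.3% at resolution 1. The sub-cluster of 80 nuclei overlapped its best match by 67.2% and 50.6%, and 41 of its nuclei stayed together at resolution 1. Pdzrn3 and Hs3st4 led the first, Gm26871 and Nr4a2 the second, and A930001A20Rik and Nxph1, a neurexin ligand, the third. In the second, 93 UMIs of Gm26871 came from 13 nuclei. The rest of cluster 12 held Gm26871 at 44.6 CPM, below the 50.2 CPM of the other Tet tcKO amacrine nuclei. In the third, Slc6a9 was at 112 CPM (57.7 to 195, 12 UMIs), against 7.95 to 42.6 CPM in the other sub-clusters. Gad2 was the most even marker, between 119 and 222 CPM with overlapping intervals in all 7, whereas Erbb4 ranged from 124 to 2023 CPM and Htr2c from 54.2 to 808 CPM.

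**Figure D4:**
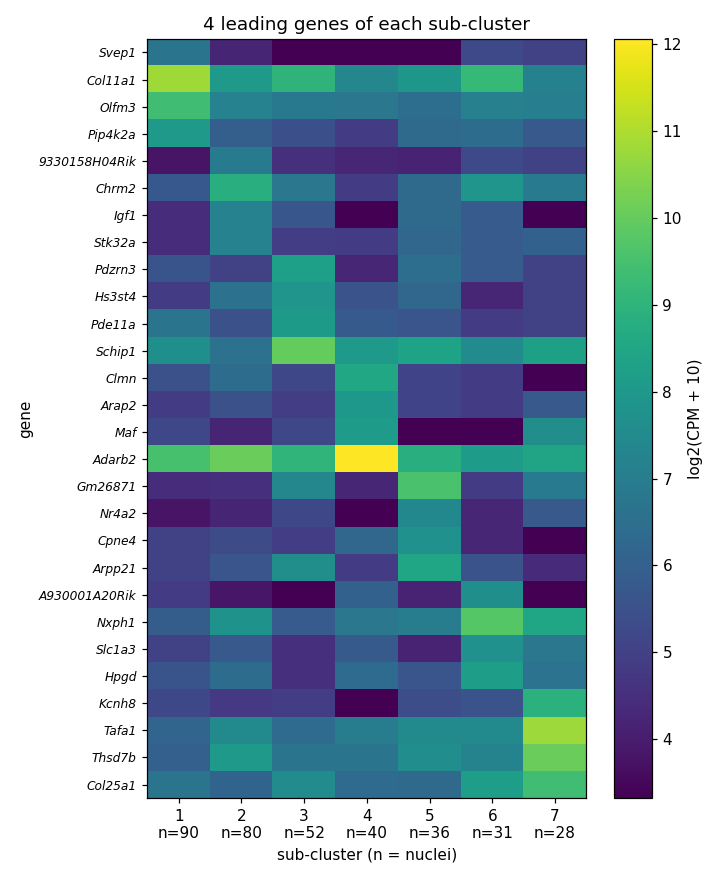
Level, as log2(CPM + 10), of the 4 leading genes of each of the 7 sub-clusters of Tet tcKO cluster 12, with the number of nuclei below each column. Each block of 4 genes is brightest in its own column because the genes were picked for that, and Kcnh8 and Tafa1 mark the sub-cluster of 28 nuclei.

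Variation between nuclei was measured as variance over mean after thinning to 500 UMIs, where counting alone gives about 1. Among 3360 genes the median was 0.97, and 67 genes were at 1.5 or more. Gm45459 and Spsb1 led through 1 nucleus each. Of genes spread over many nuclei, Kcnip4, a potassium channel partner, was highest at 7.03, followed by Lrrc4c (3.27), Galntl6 (3.12), Ralyl (2.65) and Pcdh9 (2.57). Kcnip4 was at 19984 CPM in the sub-cluster of 28 nuclei and at 3915 CPM in the rest. Myh13 (3.49), Rnf220 (2.55) and Gm44077 (2.47) had 18.9%, 14.1% and 27.9% of their UMIs in 1 nucleus.

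The 14 Cre- nuclei of cluster 12 held 51435 UMIs and serve as a reference only. They carry the number 12 because nuclei of both libraries were clustered on these transcripts. Agreement in the leading genes is therefore partly built in and is no evidence. Of the 15 highest genes of the Tet tcKO cluster, 10 were detected in them and all 10 were above the other Cre- amacrine nuclei, and 5 had no UMI. Of those 10, Spsb1 had 1 UMI, and the intervals of Erbb4 (-0.66 to 1.56) and Fat4 (-2.37 to 3.04) included 0. Of the 5 given markers, 3 were higher, Stxbp6 was lower (97.2 against 116 CPM) and Htr2c had no UMI. Of those 3, all 6 Tacr1 UMIs came from 1 nucleus, and the intervals of Gad2 (-0.32 to 2.31) and Erbb4 included 0. Of the 15 lowest, 8 were detected, all below the other Cre- amacrine nuclei, which included 72 of cluster 13, and 7 had no UMI. Of those 8, the intervals of Adamts18 (-2.05 to 0.92), Calb1 (-7.00 to 0.93), Glra1 (-6.70 to 1.27) and Fam184b (-4.75 to 0.24) included 0. Isl1, Calb1 and Glra1 had 1 UMI each. Lrrtm4 was at 1944 against 621 CPM, Elavl2 at 292 against 71.0 CPM and Arpp21 at 428 against 45.4 CPM. Erbb4 had 9 UMIs in 2 nuclei, and Htr2c had 0 UMIs of 51435, which allows up to 58.3 CPM (3 counts).

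Over 10709 genes, the differences of Tet tcKO cluster 12 from the rest of its amacrine nuclei, on the log2(CPM + 10) scale, were correlated with those of each Cre- cluster from its own rest. Genes are not independent replicates, and depth and the make-up of the rest are shared, so these values are descriptions. The shared cluster numbers came from the same transcripts, so a higher value for the same number is partly built in. Pearson's r was 0.30 for the 14 Cre- nuclei of cluster 12 (Spearman's rho 0.29), 0.14 for cluster 24 (0.14), -0.00 for cluster 23 (-0.01), -0.04 for cluster 27 (-0.09) and -0.24 for cluster 13 (-0.19). Levels themselves correlated best with cluster 27, at 0.89, the cluster with the most Cre- UMIs among these.

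Set against Cre- cluster 27, the main Cre- amacrine cluster, 1207 of 10707 genes (11.3%) were at least 2-fold higher in Tet tcKO cluster 12 and 1530 (14.3%) at least 2-fold lower. Here cluster, genotype and library differ together and cannot be told apart. The 5 given markers had log2 ratios from 1.08 for Tacr1 to 2.78 for Erbb4 (2.297 to 3.301). Lrrtm4 had 1.96, while Robo1 had 0.36. The 5 highest at 50 CPM or more were Ptchd1 (4.44, 1 UMI in cluster 27), Gm37202, Gm26871 (3.25), Gm10530 (3.06) and Nrp1 (3.01), a semaphorin and VEGF receptor. The 5 lowest were Spc25 (-5.58), Spink13 (-4.57), Olfr1440, Col5a1 (-3.51) and BC046251 (-3.15), and all 18 UMIs of Olfr1440 came from 1 nucleus of cluster 27. The rod markers had a median of -2.06 and the cone markers of 0.78 in this comparison.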

How the data were processed

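Nuclei of P21 whole retina were profiled in 1 library per genotype. The authors processed reads with pipseeker (GRCm39), removed ambient RNA with CellBender, filtered nuclei by transcripts and mitochondrial share, and clustered and named them in Monocle3. The deposited matrices hold whole UMI counts, and nuclei had 502 to 9981 UMIs and at most 20.0% mitochondrial transcripts. The deposited mitochondrial percent is the authors' value. The deposited size factor, a ratio, and the deposited mean signal per gene were not used. No doublet step is given in the sources used here and none was run. An alternative leaves out the 5% of amacrine nuclei with the most UMIs.

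Counts were summed over nuclei and divided by their total (CPM). A count of 0 was set to 3 in ratios. Intervals are exact at 95% (Poisson, conditional or Clopper-Pearson) and cover counting error only. No test was run. The functions were tested on simulated data. Gene positions came from GENCODE by gene ID. Genes named were Tet1, Tet2, Tet3, the 5 given markers, the 15 highest and 15 lowest ratios at 50 CPM or more, the 2 highest and 2 lowest members of each list at 20 CPM or more and members at least 2-fold different, from which the text gives examples (some are not reported here), the 10 most variable genes, and the 5 highest and 5 lowest against Cre- cluster 27. Sub-cluster genes, and the markers followed across them, were named after their values were seen. Sub-clusters used 1500 variable genes, 15 components and 15 neighbours, and their leading genes had at least 20 UMIs in 5 or more nuclei, at most 30% of them in 1. The members, lists and rules were chosen with earlier results of these data known. Python 3.11.15, numpy 2.4.6, scipy 1.17.1, pandas 2.3.3 and scanpy were used.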

Additional observations from a re-analysis of the deposited data

How the results depend on the processing

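No paired analysis was possible because each genotype is 1 library. The counts of genes at least 2-fold higher and lower (253 and 551) became 615 and 420 when a gene scored 1 in any nucleus that held it, 613 and 1122 with the other clusters weighted equally, 683 and 1395 at 1 CPM or more and 52 and 78 at 50 CPM or more. At 1500 to 3500 UMIs, an alternative chosen after seeing the data, as were the removal of cluster 13 and of each gene's highest nucleus, they were 596 and 1087 in fewer nuclei. With TMM factors the counts were 318 and 454. Counted once per nucleus, the median of the given markers was 0.68 and of the starburst list -1.80, and without cluster 13 the latter was -0.24. Of 81 named genes at least 2-fold different, 4 changed sign and 22 fell under 2-fold without cluster 13, 2 and 4 of 79 with a value did so without the highest nucleus, and 1 and 14 of 77 at 1500 to 3500 UMIs. Among those under 2-fold without cluster 13 were Cdh20 (0.82), Chrna7 (0.88), Slc18a2 (0.93), Grin2c (-0.65), Slit3 (-0.96) and Sv2c (-0.78), and at 1500 to 3500 UMIs Glra2 (0.95), Kcnh8 (0.77), Epha8 (-0.79) and Tspan17 (-0.79). Without cluster 13, Chat came to a bound of 1.15, Gabra4 to 1.03, Slc5a7 to 1.31 and Etl4 to 0.52. Counted once per nucleus, Gm33125 came to -0.81, Gm45459 to -0.49 and Lrrtm4 to -0.072. Without the highest nucleus, Gm33125 came to -1.74 and Gm45459 to -0.84. Gm33125 came to -0.28 without the nuclei of most UMIs, and Gm45459 to -0.52 at 1500 to 3500 UMIs. At 1000 UMIs or more, the Cre- share of cluster 12 was 6.22% of amacrine and 0.32% of all nuclei. At 50 CPM or more, likeness was -0.41 to Cre- cluster 13 and 0.26 to cluster 24. Against Cre- cluster 27 the counts were 2111 and 870 once per nucleus and 391 and 551 at 50 CPM or more. Thinned to 1000 UMIs, 144 genes had a variance over mean of 1.5 or more. Of 330 list medians under alternatives, 324 stayed within their counting interval and 304 kept their sign. Of 363 values of single genes, 307 stayed within it, 46 moved out of it and 10 reversed. Apart from the choices whose own construction changes the count (the CPM minimum, fewer nuclei, cluster 13), the cause of these changes was not tested. The 21 nuclei of cluster 27 and the 14 Cre- nuclei of cluster 12 limit what their levels can show, and no value here covers variation between animals.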

Other observations

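Immediate early genes, which neurons switch on with activity or stress, held no member at least 2-fold different in cluster 12. With 6 counted genes this is near the share over all genes, 2.36% higher and 5.15% lower. Of 16 listed, 6 reached 10 CPM and all 6 had a negative log2 ratio over the other Tet tcKO amacrine nuclei, from -0.85 for Jund to -0.42, with a median of -0.68 beside -0.10 for all genes, of which 40.5% had a positive ratio. Egr1 was at 14.1 against 24.3 CPM and Nr4a1 at 30.003 against 44.7 CPM. The intervals of Egr1 (-1.78 to 0.14) and Nr4a1 (-1.25 to 0.07) both included 0.

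The genes listed for the difference between the whole libraries, chosen with these data in view, were mostly lower in cluster 12. Their median log2 ratio was -1.06, beside -0.10 for all genes. Of 9 counted, 0 were at least 2-fold higher than in the other Tet tcKO amacrine nuclei, and 5 were at least 2-fold lower, beside 5.15% of all genes. These were Gm35229 (-2.44), Spink13 (-1.96), Fabp7 (-1.60), Robo3 (-1.15) and Cnga1 (-1.06). The 2 with a positive ratio were Gna12 (0.35) and Endov (0.32). Gm35229, Spink13 and Fabp7 were under 10 CPM in cluster 12 and were counted only through the other nuclei. This leans the 5 of 9 and the list's median to the lower side. Robo3 and Cnga1 were above 10 CPM in both populations, and Spc25, listed but not counted, was also lower in cluster 12. Of the 253 higher genes, 13 had over 50% of their cluster 12 UMIs in 1 nucleus, and 55 of 55 UMIs of Rag1, which codes for a recombinase of lymphocytes, came from 1 nucleus.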
